A study of Mus musculus with 4 samples.

Results

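The 10 genes described here encode chondroitin sulfate proteoglycans of the brain, link proteins that tie some of them to hyaluronan, and enzymes that make hyaluronan. They are the lectican core proteins Ncan (neurocan), Vcan (versican), Bcan (brevican) and Acan (aggrecan), the transmembrane proteoglycan Cspg5 (neuroglycan C), the link proteins Hapln1, Hapln2 and Hapln4, and the hyaluronan synthases Has2 and Has3. They were taken by gene symbol from the authors' tables, and all 10 were found among the 22619 genes that the tables list. The data are RNA-seq of cortex from C57BL/6 mouse embryos at E16.5. There were 2 libraries from embryos labelled as a conditional knockout of H2A.Z.2 (cKO replicates 1 and 2) and 2 from wild-type embryos (WT replicates 1 and 4). H2A.Z.2 is a histone H2A variant encoded by H2afv. The labels used here name neither the Cre driver nor the deleted exons and give no treatment. Nor do they state how many embryos or litters lie behind a library. The p-values below therefore rest on library-to-library spread, which may include a technical share.

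The brain's extracellular matrix holds little fibrillar collagen and is built on hyaluronan, a long sugar chain that HAS enzymes extrude through the cell membrane. Lecticans bind that chain at one end of the protein, carry chondroitin sulfate along their middle, and bind tenascins at the other end. Link proteins clamp the lectican to the chain. In the embryonic cortex this matrix surrounds progenitors and migrating neurons, and in the adult it condenses into perineuronal nets.

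The 4 libraries held 16625181 to 17940659 reads on genes. H2afv, the targeted gene, had 128 and 127 CPM (count divided by library size, normalised with edgeR's TMM factors) in the cKO libraries, against 136 and 222 CPM in the WT libraries. Both cKO values lay below both WT values, but close to WT replicate 1, and the log2 fold change of cKO over WT was -0.49 (SE 0.23, edgeR adjusted p = 0.956). It was -0.09 without WT replicate 4 and -0.80 without WT replicate 1, each time with only 1 WT library left. WT replicate 4 stood apart: it was at 53.7 on the first principal component, which held 63.6% of the variance, and the other 3 libraries were between -25.9 and -10.0. It was the highest or the lowest of the 4 libraries in 73.9% of the 16269 genes tested. No gene passed 5% FDR in edgeR or in DESeq2 (percent called 0), and 1.67% of the genes had an unadjusted edgeR p below 0.05.

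Ncan was by far the most abundant of the 10 transcripts. Together the 10 genes took 0.0912% and 0.0876% of all reads in cKO replicates 1 and 2, against 0.0888% and 0.0770% in WT replicates 1 and 4. The difference between group means was 0.00646 percentage points, 0.000592 without WT replicate 4 and 0.0123 without WT replicate 1 (exact permutation test, two-sided, p = 0.667, where 2 libraries against 2 cannot go below 0.333). Ncan alone held 54.5% and 55.9% of these reads in the cKO libraries and 53.9% and 54.7% in the WT libraries. Ncan, Vcan, Bcan and Cspg5 held 96.8% to 97.7% of them in every library.

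Levels of different genes were compared as CPM per kb of annotated exon. Over the 4 libraries Ncan averaged 65.7 ± 5.58 CPM per kb (SD, n = 4), above 95.7% of 15293 protein-coding genes. Bcan followed at 18.1 ± 1.25 CPM per kb, Cspg5 at 14.0 ± 4.15 and Vcan at 10.6 ± 1.00. The ranges of Bcan and Cspg5 over the libraries overlapped, as did those of Cspg5 and Vcan. Within a library Bcan was above Cspg5 in 4 of 4, and Cspg5 above Vcan in 3 of 4, all but WT replicate 4. Bcan and Vcan did not overlap, with a lowest Bcan value of 16.6 CPM per kb and a highest Vcan value of 11.7. Has3 stood alone below them at 3.15 ± 0.364 CPM per kb. Hapln4 came next at 0.334 ± 0.0351 CPM per kb, followed by Has2 at 0.197 ± 0.103 and Hapln2 at 0.188 ± 0.156. Acan at 0.0520 ± 0.0120 and Hapln1 at 0.0370 ± 0.0291 CPM per kb were the lowest, at percentiles 2.28 and 1.20 of protein-coding genes. Neighbours overlapped from Has2 downwards. The exon lengths are those of every annotated isoform merged, so a gene with a long unused exon is understated on this scale.

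**Figure D1:**
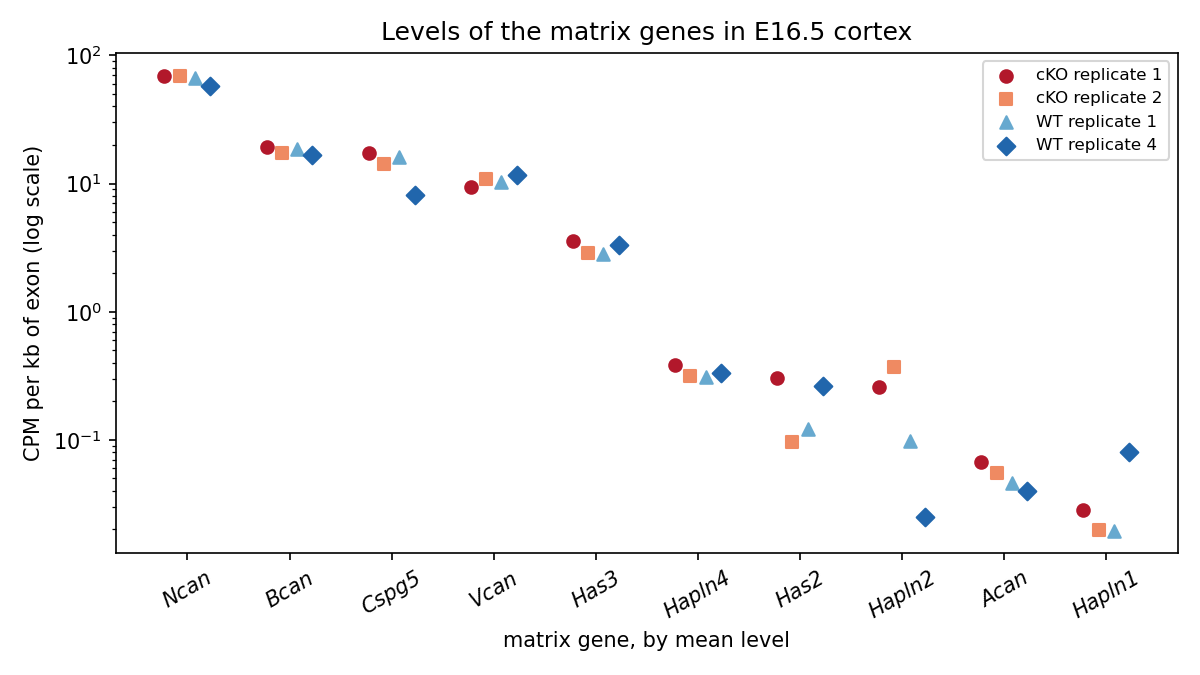
Level of each matrix gene in each library, in CPM per kb of exon on a log scale, with genes ordered by their mean. Ncan, at 57.6 to 69.5 CPM per kb, lies above every other gene, and Cspg5 drops to 8.08 in WT replicate 4.

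Each lectican gene lies next to a link protein gene on GRCm38, with no annotated gene between, and the members of a pair were at unlike levels. Ncan (chromosome 8, 70093085 to 70120873, minus strand) ends 2222 bp from the end of Hapln4 (70083457 to 70090862, plus strand), at 65.7 against 0.334 CPM per kb. Bcan (chromosome 3, 87987531 to 88000230, minus strand) lies 21519 bp downstream of Hapln2 (88021750 to 88027583, minus strand), at 18.1 against 0.188 CPM per kb. Vcan (chromosome 13, 89655312 to 89742509, minus strand) faces Hapln1 (89539796 to 89611652, plus strand) across 43659 bp, at 10.6 against 0.0370 CPM per kb. The remaining pair ran the other way. Acan (chromosome 7, 79053483 to 79115099, plus strand) was at 0.0520 CPM per kb, and Hapln3, a link protein gene outside the 10 whose end lies 2 bp from that of Acan, was at 0.672 CPM per kb. Counting is not stated to use strand, so reads that run past the end of Acan or Hapln3 cannot be told from reads of its neighbour.

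The sequence just upstream is shown for Bcan and Hapln2, neighbours on the same strand at unlike levels, and for Ncan, the most abundant member. RefSeq promoter windows (build GRCm38.p6) were found for 6 of the 10 genes. The 250 bases before the RefSeq start are printed 5′ to 3′ on the gene's strand, with each CG dinucleotide in capitals. That start is not always the edge of the gene positions given above: the Ncan and Hapln2 windows reach into those positions. The windows are chr8:70120845-70121094 (minus) for Ncan, chr3:88000357-88000606 (minus) for Bcan and chr3:88027512-88027761 (minus) for Hapln2.
Ncan: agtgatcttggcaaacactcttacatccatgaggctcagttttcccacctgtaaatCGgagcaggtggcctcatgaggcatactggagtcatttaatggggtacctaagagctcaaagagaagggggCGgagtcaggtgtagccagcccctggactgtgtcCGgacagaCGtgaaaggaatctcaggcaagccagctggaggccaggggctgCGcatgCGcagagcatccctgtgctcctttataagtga
Bcan: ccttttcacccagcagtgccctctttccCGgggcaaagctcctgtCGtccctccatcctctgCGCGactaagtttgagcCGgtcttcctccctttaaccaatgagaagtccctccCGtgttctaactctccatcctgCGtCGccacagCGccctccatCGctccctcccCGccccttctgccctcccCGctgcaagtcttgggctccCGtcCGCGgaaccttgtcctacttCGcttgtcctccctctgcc
Hapln2: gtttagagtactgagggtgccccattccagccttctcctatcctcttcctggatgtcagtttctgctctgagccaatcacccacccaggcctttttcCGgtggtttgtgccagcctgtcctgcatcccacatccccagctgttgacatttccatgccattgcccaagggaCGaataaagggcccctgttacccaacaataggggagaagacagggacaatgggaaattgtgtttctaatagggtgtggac

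Over 32851 promoters the median window held 6 CG dinucleotides. The windows of Acan, Bcan, Vcan and Ncan held 26, 16, 10 and 6, and those of Hapln1 and Hapln2 held 2 each. Fewer than 2 were found in 18.8% of promoters. CG content did not follow level among these 6 genes: Acan, with 26, was one of the least abundant, and Ncan, with 6, the most. The GC box GGGCGG, on either strand, was in the windows of all 4 lecticans and in neither link protein window, against 32.7% of all promoters. TATAAA, on either strand, was in the Ncan window alone of the 6, against 12.4% of all promoters, and CCAAT was in those of Vcan, Bcan, Acan and Hapln2, against 33.8%. These are matches of letters and not measured sites. The Hapln1 window, chr13:89540386-89540635, lies inside the Hapln1 gene (89539796 to 89611652), so the windows do not mark like places.

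Among the lecticans, Ncan was slightly higher in both cKO libraries, and no lectican passed the test. Ncan, the lectican made mainly by neurons in the embryonic brain, was at 498 and 500 CPM in cKO replicates 1 and 2, against 477 and 414 CPM in WT replicates 1 and 4. The cKO libraries nearly coincide and lie above both WT libraries, of which replicate 4 is the lowest. The mean was 499 ± 1.29 CPM in cKO and 446 ± 44.4 CPM in WT (SD, n = 2 each), a log2 fold change of 0.16 (SE 0.13, edgeR adjusted p = 0.956, 95% interval -0.14 to 0.47). Without WT replicate 4 the log2 fold change was 0.07. In the authors' deposited tables, each of 1 cKO library over 1 WT library, that of Ncan was 0.24 for cKO replicate 1 over WT replicate 4 and 0.03 for cKO replicate 2 over WT replicate 1.

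Vcan, a large lectican of embryonic matrix that is also made outside the nervous system, was at 135 and 158 CPM in the cKO libraries, against 149 and 169 CPM in the WT libraries. The groups interleave, with WT replicate 4 the highest. The log2 fold change was -0.12 (SE 0.14, edgeR adjusted p = 0.956, 95% interval -0.46 to 0.23), and it was -0.02 without WT replicate 4. In the authors' deposited tables it was -0.36 for cKO replicate 1 over WT replicate 4 and 0.05 for the other pair.

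Bcan, a lectican restricted to the nervous system and made largely by glia, was at 78.9 and 71.0 CPM in the cKO libraries, against 76.3 and 67.6 CPM in the WT libraries. The groups overlap, and replicate 1 of each is the higher. The log2 fold change was 0.06 (SE 0.14, edgeR adjusted p = 0.969, 95% interval -0.28 to 0.40). It was -0.02 without WT replicate 4 and also without cKO replicate 1.

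Acan, the lectican that later marks perineuronal nets, had 9 and 7 reads in the cKO libraries, against 6 and 5 in the WT libraries. The exact 95% Poisson intervals of these counts, which cover counting error only, run from 1.62 to 17.1 reads and all overlap. Acan did not pass the filter on low counts and has no value in the main test. With no filter its log2 fold change was 0.50 (SE 0.53, edgeR adjusted p = 0.958).

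The makeup of the lectican transcripts was taken per kb of exon. The groups did not overlap for the share of Ncan, which was higher in cKO, and overlapped for those of Vcan and Bcan. Ncan made up 70.60% and 70.93% of the lectican total in the cKO libraries, against 69.49% and 66.98% in the WT libraries. Vcan made up 9.53% and 11.2% in cKO and 10.8% and 13.6% in WT, and Bcan 19.8% and 17.8% in cKO and 19.7% and 19.4% in WT. The exact permutation tests, two-sided over 2 libraries against 2, gave p = 0.333 for Ncan, 0.667 for Vcan and 1 for Bcan, and 0.333 is the smallest p they can give. Adjustment could only raise these values. The 4 lecticans together came to 98.1 and 98.0 CPM per kb in cKO, against 95.4 and 86.0 in WT (exact permutation p = 0.333). Without WT replicate 4 the difference in this sum was 2.60 CPM per kb, against 7.34 with all libraries, that in the share of Ncan 1.28 percentage points, against 2.54, and that in the share of Vcan -0.44, against -1.85. Without WT replicate 1 these differences were 12.1, 3.79 and -3.26.

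**Figure D2:**
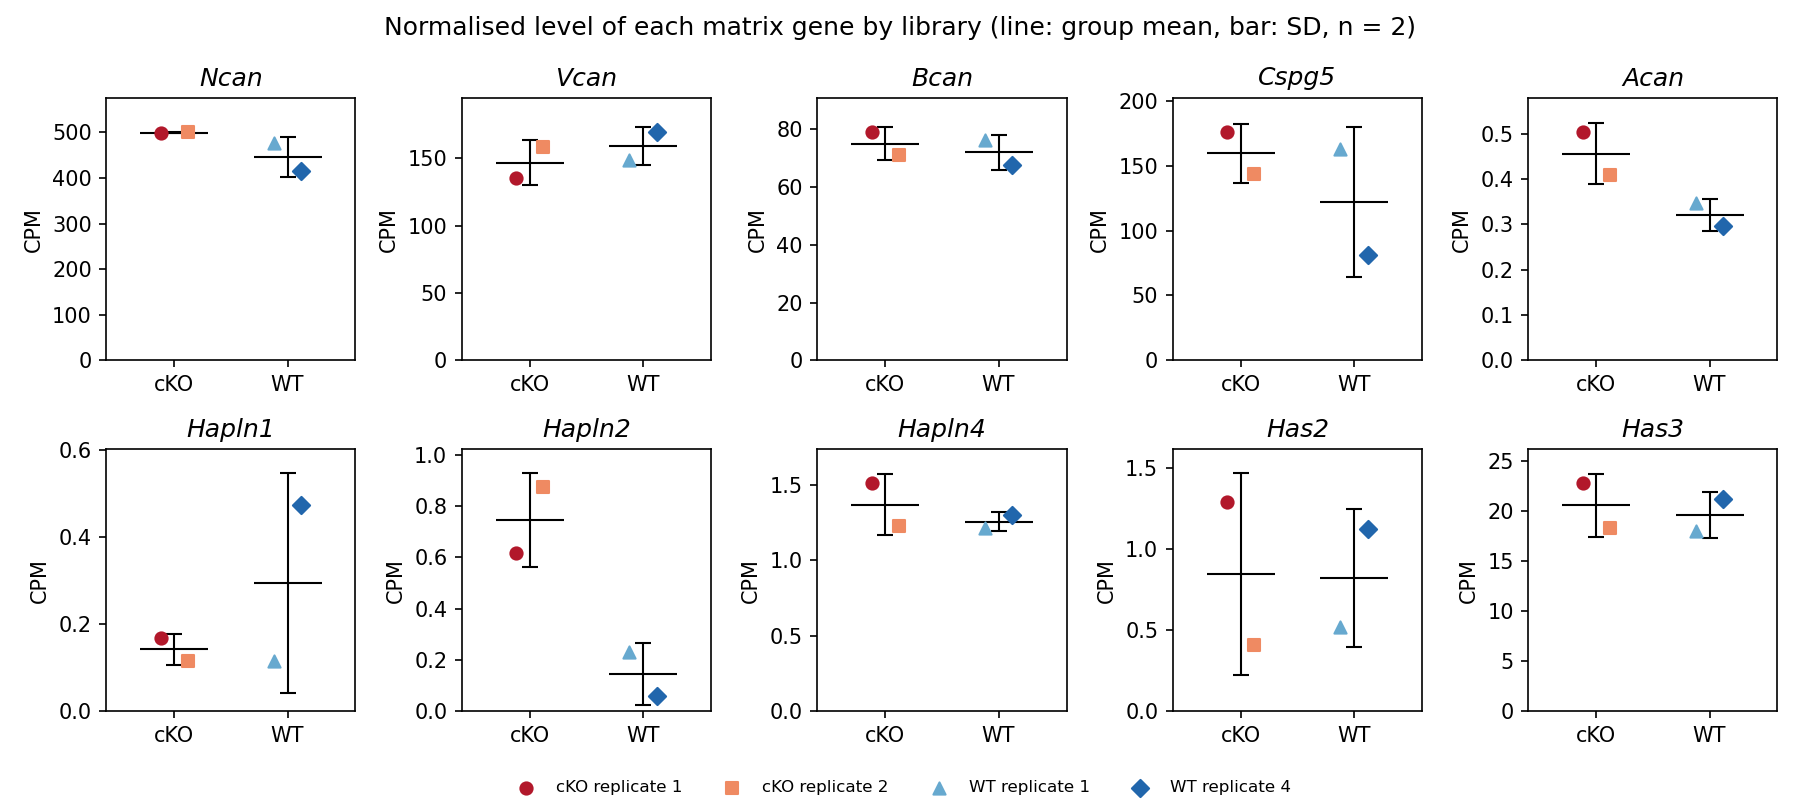
Normalised CPM of each matrix gene in the 2 cKO and 2 WT libraries on axes that start at 0, with the group mean as a line and the SD as a bar. The groups separate for Ncan, Acan and Hapln2, with cKO higher, and Cspg5 is set apart by WT replicate 4 at 81.4 CPM.

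Cspg5 varied most between libraries among the abundant members, and WT replicate 4 was the library that stood out. It encodes a membrane-spanning proteoglycan with an EGF-like domain that is made by neurons and glia. It was at 176 and 143 CPM in cKO replicates 1 and 2, against 163 and 81.4 CPM in WT replicates 1 and 4. WT replicate 1 lies between the cKO libraries, and WT replicate 4 lies below all 3. The mean was 160 ± 22.8 CPM in cKO and 122 ± 57.5 CPM in WT (SD, n = 2 each), a log2 fold change of 0.39 (SE 0.31, edgeR adjusted p = 0.956, 95% interval -0.37 to 1.14). Without WT replicate 4 it was -0.02, and without WT replicate 1 it was 0.97 and passed the test (edgeR adjusted p = 0.00183), where WT replicate 4 is the lone WT library and is assumed to vary like the cKO libraries. That fit called 1849 of 16920 genes.

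The authors' deposited tables gave Cspg5 opposite directions. Its log2 fold change there was 1.08 for cKO replicate 1 over WT replicate 4 (authors' adjusted p = 8.80e-127), which their table marks as significant, and -0.22 for cKO replicate 2 over WT replicate 1 (authors' adjusted p = 2.24e-06). These p-values are each for 1 library against 1 and hold no spread between replicates. In the authors' deposited table with WT replicate 4, 45.1% of genes had an adjusted p below 0.05, among them Ncan, Vcan, Bcan, Cspg5 and Hapln2, and 8.72% also changed by more than 1 on the log2 scale, among them Cspg5 and Hapln2. In the other deposited table of the authors the shares were 13.3%, with Cspg5 as the only matrix gene, and 1.62%, with none.

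Hapln2 showed the largest fold change of the 10 genes, on few reads. It encodes a link protein known in the adult from nodes of Ranvier and made there by oligodendrocytes. It had 11 and 15 reads in cKO replicates 1 and 2, against 4 and 1 reads in WT replicates 1 and 4. Both cKO libraries lie above both WT libraries, but the exact 95% Poisson interval of cKO replicate 1, from 5.49 to 19.7 reads, overlaps that of WT replicate 1, from 1.09 to 10.2 reads. In CPM it was at 0.615 and 0.875 in cKO, against 0.231 and 0.0591 in WT. The log2 fold change was 2.30 (SE 0.74, unadjusted p = 0.0201, edgeR adjusted p = 0.956, 95% interval 0.50 to 4.09), and with DESeq2 the unadjusted p was 0.0821. It did not pass the test over all genes. Hapln2 passed the filter on low counts through its cKO libraries alone, so its unadjusted p is given as a description. No other matrix gene had an unadjusted p below 0.05, which 1.67% of all genes had. Because the Hapln2 groups do not overlap, leaving out 1 library could not reverse its direction. Its log2 fold change ranged from 1.66 without WT replicate 4 to 3.50 without WT replicate 1. In the authors' deposited tables it was 3.35 (authors' adjusted p = 0.00512) for cKO replicate 1 over WT replicate 4 and 1.89 (authors' adjusted p = 0.0659) for the other pair.

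Markers of the oligodendrocyte lineage were measured beside Hapln2. All 7 listed precursor markers were detected, none at 0, and their summed level was 108.0 and 82.8 CPM in the cKO libraries, against 87.6 and 78.5 CPM in the WT libraries. Olig1 was at 34.4 and 26.4 CPM in cKO, against 26.6 and 19.2 in WT, and Olig2 at 29.1 and 17.1 in cKO, against 18.3 and 35.7 in WT. Of the 7, 6 had their lowest level in WT replicate 4, and none passed 5% FDR. The sum, mostly Olig1 and Olig2, does not order the libraries as Hapln2 does, since cKO replicate 2, highest for Hapln2, is below WT replicate 1. Single markers differ in this: Sox10, at 6.10 and 6.42 CPM in cKO, against 5.88 and 3.37 in WT, has the order of Hapln2, and Nkx2-2, at 1.29 and 0.875 CPM, against 0.577 and 0.355, has both cKO libraries above both WT libraries. The other 5 overlap between groups. Choroid plexus markers summed to 505 and 55.8 CPM in cKO, against 34.6 and 11.6 CPM in WT, most of it Ttr at 466 and 48.3 CPM, against 26.7 and 0.473. Of the 7, Ttr, Folr1, Clic6 and Kcne2 had both cKO libraries above both WT libraries and an unadjusted p below 0.05. Otx2, at 6.21 and 1.11 CPM in cKO, against 1.44 and 8.10 in WT, and Aqp1 overlapped, and Kl was below 1 CPM throughout and lower in both cKO libraries. Their part in the Hapln2 values was not tested. In bulk tissue, fewer cells of a type and less RNA per cell cannot be told apart.

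The other link proteins showed no difference past the test. Hapln4, a link protein that in the adult is found at inhibitory synapses and perineuronal nets, had 27 and 21 reads in cKO, against 21 and 22 reads in WT. These groups overlap, and the log2 fold change was 0.12 (SE 0.41, edgeR adjusted p = 0.976, 95% interval -0.88 to 1.13). Hapln1, the link protein first known from cartilage, had 3 and 2 reads in cKO, against 2 and 8 reads in WT. Hapln1 is set by WT replicate 4, whose exact 95% Poisson interval of 3.45 to 15.8 reads overlaps those of the others, and it did not pass the filter on low counts. With no filter its log2 fold change was -1.005 (SE 0.84, edgeR adjusted p = 0.958). The 3 link protein genes summed to 0.673 and 0.701 CPM per kb in cKO, against 0.426 and 0.436 in WT (exact permutation p = 0.333, two-sided, the smallest that 2 libraries against 2 allow), a difference carried by Hapln2.

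Of the hyaluronan synthases, Has3 was measured well and Has2 was near the limit of counting. Has3, which makes shorter hyaluronan chains, was at 22.8 and 18.4 CPM in cKO, against 18.0 and 21.3 CPM in WT. The groups overlap, and the log2 fold change was 0.07 (SE 0.20, edgeR adjusted p = 0.975, 95% interval -0.43 to 0.56). Exons of Has3 share 352 bp with Chtf8 on the opposite strand, which had 2080 to 2671 reads. Without strand, reads in that stretch cannot be assigned to either gene, and how they were counted is not known here. Has2, which makes long chains and is essential for heart development in the mouse embryo, had 23 and 7 reads in cKO, against 9 and 19 reads in WT. High and low libraries of Has2 occur in each group, so its log2 fold change of 0.05 (SE 0.70, edgeR adjusted p = 0.993, 95% interval -1.64 to 1.75) leaves room for a large change either way. Its exons share 182 bp with the antisense gene Has2os, and counting is not stated to use strand. Has3 exceeded Has2 by 11.8 and 29.9 times in CPM per kb in the cKO libraries and by 23.0 and 12.6 times in the WT libraries. Has2 and the summed interneuron markers had the same 2 high libraries, cKO replicate 1 and WT replicate 4, as did 6 of the 8 markers, while Sst and Npy were lowest in WT replicate 4. The sum was 1150 and 773 CPM in cKO, against 892 and 1213 CPM in WT, with Dlx1 at 393 and 259 CPM against 315 and 470. All 8 interneuron markers were detected, and their part in the Has2 values was not tested.

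**Figure D3:**
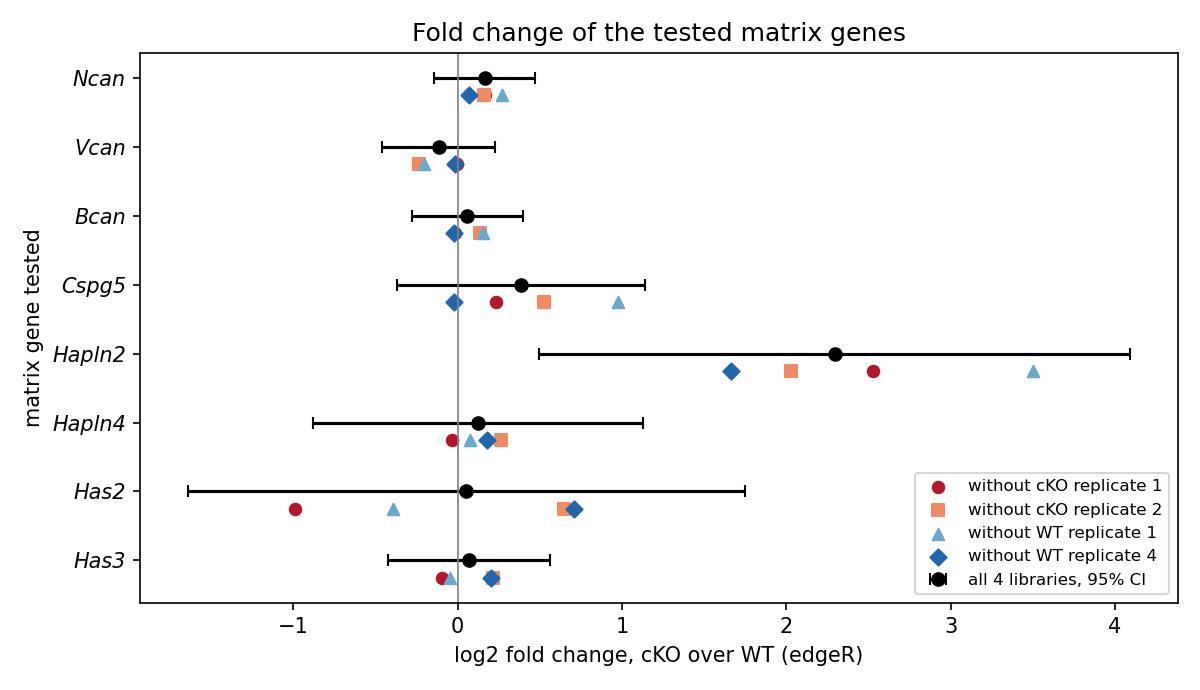
Log2 fold change of cKO over WT for the 8 matrix genes tested, with the 95% confidence interval from all 4 libraries in black and the value with each library left out in colour. Cspg5 ranges from -0.02 without WT replicate 4 to 0.97 without WT replicate 1, and Has2 changes sign with the library left out.

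Across the 10 genes, 8 passed the filter on low counts and 0 passed 5% FDR, where the percent called over all genes is 0. Both cKO libraries lay above both WT libraries in Ncan, in Hapln2, which was among the 8 through its cKO counts alone, and in Acan, which was not tested. This held in 16% of all genes tested, and the reverse, seen in 0 of the 8, in 15.7%. The median log2 fold change of the 8 was 0.10, against -0.01 over all genes tested, and 7 of the 8 were positive, against 7833 of 16269. WT replicate 4 was the highest or lowest library in 62.5% of the 8 genes.

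The library profiles of the members were also compared with each other and with the other pathway genes, by the distance between centred log2 CPM values over the 4 libraries. The gene nearest to Ncan of 77 compared was B4galt7, a galactosyltransferase that builds the linker between core protein and chain, at a distance of 0.062. For Vcan it was Chsy1, a chondroitin synthase (0.067), and for Bcan it was Chst15, a chondroitin sulfotransferase (0.090). Cspg5 was nearest to Timp4 (0.23), Hapln2 to Adamts8 (0.93), Hapln4 to Mmp9 (0.070) and Has3 to Hapln4 (0.12). With 4 libraries such likeness is common: 158 other genes of 16268 were as near to Ncan as B4galt7 was, and 100 as near to Vcan as Chsy1 was.

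Partners and receptors of the matrix were measured from a list of 9 genes, of which 0 passed 5% FDR. An unadjusted edgeR p below 0.05 was found for 1, against 1.67% of all genes tested. It was the only such gene of the 70 tested in the pathway lists. Tnr, the tenascin that crosslinks lecticans, was at 35.5 and 34.6 CPM in cKO, against 30.6 and 20.6 CPM in WT (log2 fold change 0.45, SE 0.22). Tnc, a tenascin of radial glia, was at 144 and 128 CPM in cKO, against 167 and 66.7 CPM in WT. WT replicate 1 lies above both cKO libraries and WT replicate 4 lies below all 3. Without WT replicate 4 the log2 fold change of Tnc was -0.30, against 0.21 with all libraries. Rtn4r, the Nogo receptor, which also binds chondroitin sulfate, was at 46.9 and 49.6 CPM in cKO, against 38.1 and 27.7 CPM in WT (log2 fold change 0.55, SE 0.19, unadjusted p = 0.0273, edgeR adjusted p = 0.956). Its relative Rtn4rl1 had a log2 fold change of 0.51 (SE 0.34). Hmmr, a hyaluronan-binding protein that also acts on the mitotic spindle, was at 14.3 and 10.2 CPM in cKO, against 14.3 and 28.7 CPM in WT (log2 fold change -0.81, SE 0.36), and WT replicate 1 and cKO replicate 1 nearly coincide. Cd44, the main cell-surface hyaluronan receptor, was low, at 2.13 and 1.22 CPM in cKO, against 1.73 and 1.18 CPM in WT. The receptor phosphatases of the list were abundant. Ptprs was at 1241 and 1208 CPM in cKO, against 1178 and 1289 CPM in WT. Ptprz1 was at 166 and 243 CPM, against 242 and 228 CPM, and Ptprf at 205 and 170 CPM, against 181 and 248 CPM. Their log2 fold changes were -0.01, -0.20 and -0.20.

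Of 6 related genes listed (other proteoglycans, a link protein and a synthase), 5 were tested and 0 passed 5% FDR. Cspg4 (NG2), the proteoglycan of oligodendrocyte precursors and pericytes, was at 17.2 and 13.6 CPM in cKO, against 13.8 and 10.4 CPM in WT. Spock1 and Spock2, testican proteoglycans of neurons, had log2 fold changes of 0.44 (SE 0.22) and 0.20 (SE 0.20), and Spock3 had -0.51 (SE 0.30). Hapln3 had 57 and 31 reads in cKO, against 34 and 42 in WT. The third hyaluronan synthase gene, Has1, had 8 and 2 reads in cKO, against 2 and 8 in WT, and was not tested.

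The enzymes that build and take apart the matrix were measured from 5 further lists, and none of their tested members passed 5% FDR or had an unadjusted p below 0.05. Of 12 tested chain synthesis genes 6 had a positive and 6 a negative log2 fold change (median 0.05), among them the linker glucuronosyltransferase gene B3gat3 at 105 and 110 CPM in cKO, against 103 and 85.4 in WT, and the chondroitin polymerising factor gene Chpf at 76.2 and 69.4 CPM, against 64.8 and 62.8. Of 13 sulfation and epimerisation genes 7 were positive (median 0.01), with the sulfate donor synthase gene Papss1 at -0.07 and the donor's Golgi transporter gene Slc35b2 at 0.18. Of 9 sugar precursor genes 3 were positive (median -0.03), with Gfpt1 at -0.04 and Ugp2 at -0.08. Of 8 hyaluronan breakdown genes 2 were positive (median -0.10): the cell-surface hyaluronidase gene Tmem2 was at 46.3 and 41.3 CPM in cKO, against 48.0 and 75.7 CPM in WT, and Hyal2 at 51.4 and 46.6 CPM, against 41.5 and 61.5. Of 14 proteases and inhibitors 5 were positive (median -0.16), with the metalloprotease inhibitor gene Timp2 at 0.14 and the membrane metalloprotease gene Mmp14 at -0.27.

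Over all 74 genes of the pathway lists 70 were tested, and 32 had a positive and 38 a negative log2 fold change, with a median of -0.02. The groups did not overlap in 15 with cKO above WT and in 10 with cKO below, against 16% and 15.7% of all genes tested. WT replicate 4 was the highest or lowest library in 80% of the 70. Without WT replicate 1, WT replicate 4 is the only WT library. Genes picked by their values in that fit went both ways and do not stand for the lists. Log2 fold changes were 1.03 for Tnc, 0.77 for Tnr, 0.80 for Rtn4r and 0.78 for Spock1. For Hmmr, Tmem2, Mmp14 and Chst3 they were -1.23, -0.79, -0.53 and -1.35. Without WT replicate 4 none of the 71 tested passed edgeR's 5% FDR.

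**Figure D4:**
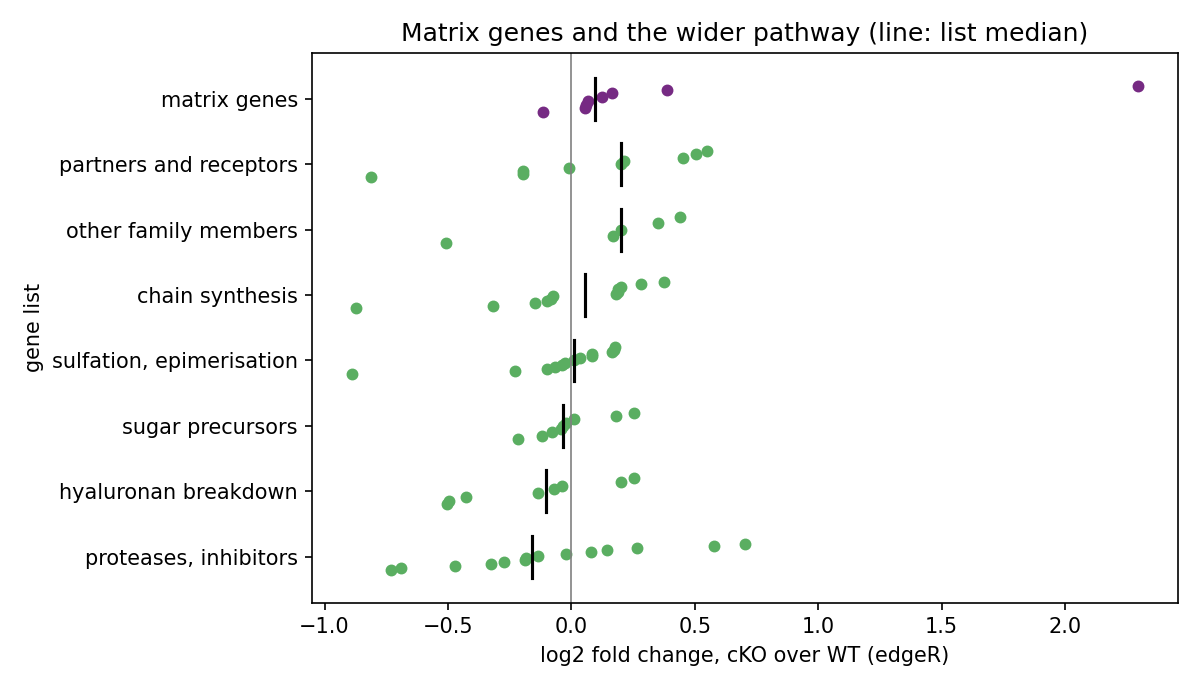
Log2 fold change of cKO over WT for each tested matrix gene and each tested gene of the 7 pathway lists, with the list median as a black line. List medians lie between -0.16 and 0.20, and Hapln2, at 2.30, lies apart from all the others.

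Markers of the cells that can make this matrix were detected in every library. Radial glia and astrocyte markers summed to 989 and 870 CPM in cKO, against 1149 and 1002 CPM in WT, with Fabp7 at 497 and 445 CPM, against 614 and 395, and Aldoc at 153 and 136 CPM, against 164 and 185. Of these 10 markers 5 had both cKO libraries below both WT libraries, against 15.7% of all genes tested. In 1, Aqp4, both lay above, against 16%. An unadjusted edgeR p below 0.05 was found for 3, against 1.67% of all genes. Their log2 fold changes were -0.75 for Gja1, -0.62 for Sox2 and -0.46 for Pax6. Of the 10, 7 had a negative log2 fold change and 3 a positive one. The positive values were 0.40 for Aldh1l1, 0.26 for Hopx and 0.18 for Aqp4. Markers of the excitatory neuron list summed to 5547 and 6761 CPM in cKO, against 5469 and 4605 CPM in WT. The largest part was Tubb3, a general neuronal gene, at 3177 and 3242 CPM, against 2818 and 2379. Neurod6 was at 692 and 1156 CPM, against 872 and 676, and overlapped between groups. Ncan and the summed neuron markers were each lowest in WT replicate 4, as were 5901 of 16269 genes tested. Of the 8 neuron markers 6 were lowest and 1 was highest in that library. The neuron sum was highest in cKO replicate 2, whereas Ncan, at 498 and 500 CPM, nearly coincided in the cKO libraries. Meningeal fibroblast markers were low, at 33.1 and 62.3 CPM in cKO and 82.6 and 23.5 CPM in WT, and did not order the libraries as Vcan did, which was highest in WT replicate 4. Endothelial and mural markers summed to 232 and 221 CPM in cKO, against 232 and 207 CPM in WT, and microglia markers to 52.0 and 36.5 CPM, against 38.9 and 39.3 CPM. No gene of these lists passed 5% FDR, and their part in the matrix gene values was not tested.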

How the data were processed

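Total RNA of mouse cortex at embryonic day 16.5 was sequenced in 4 libraries. TopHat2 2.0.12, Bowtie2 2.2.3 and HTSeq 0.6.0, with build mm9, are listed in the submitters' processing notes. The authors deposited 2 tables, each of 1 cKO and 1 WT library, whose columns were matched to samples by their titles. The description labels of WT replicate 4 and cKO replicate 2 name other table pairings than the headers do. Per the file headers they hold raw read counts beside normalised values, and for each pair p-values (raw and adjusted), the fold ratio and the same ratio as log2. The deposited normalised values were CPM over a total slightly above that of the listed genes, with 0.5 reads standing for a count of 0. The table positions matched GRCm38, not mm9: 92.1% of 22574 genes were at the GENCODE M21 position. 

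Counts of the 19844 genes in both tables went into the quasi-likelihood test of edgeR 4.0.16 (R 4.3.3), two-sided, with TMM factors, filterByExpr at min.count 10 and Benjamini-Hochberg adjustment over 16269 genes, with DESeq2 1.42.0 as an alternative. The biological coefficient of variation was 0.194 on 2 residual degrees of freedom. Depth was 16625181 to 17940659 reads, and Poisson intervals cover counting error only. The steps were also run on simulated counts with a common spread for all genes and no outlying library. That run does not measure power in these data, where WT replicate 4 stands apart. Exon lengths were from GENCODE M21 and promoters from RefSeq. The rule named all 10 members, H2afv, all partners and related proteoglycans, the 2 most abundant genes of each other list, and the nearest gene of each tested member, of which 1 is not reported here. The rule also covers the 2 most abundant markers per cell type. Chst3, Chtf8 and the markers Sst, Npy, Sox10, Nkx2-2, Folr1, Clic6, Kcne2, Aqp1 and Kl fall outside it. So do the markers Gja1, Sox2, Pax6, Aldh1l1, Hopx and Aqp4. All of these were named after their values were seen. The members and lists were chosen with earlier results of these data known. The library total alone, other size factors, filters, a block on the deposited table, genes in 1 table only and each library left out were tried.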

Additional observations from a re-analysis of the deposited data

How the results depend on the processing

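With 2 libraries in each group, 1 library can set a value. The count of matrix genes past 5% FDR was 0 with DESeq2, with RLE size factors or the library total alone, with either other filter (none, or mean CPM from 1 up), with the deposited table as a block and with genes of 1 table added. With each library left out it was 0 to 1 (Cspg5, without WT replicate 1), over all genes 0 to 1849, and in the pathway lists 0 to 8. At an unadjusted p below 0.05 and a log2 fold change beyond 1 either way, 88 of 16269 genes and 1 of the 8 matrix genes passed. That gene, Hapln2, entered the test through its cKO counts alone, so its passing is given only as a description. No paired analysis by replicate number was possible because the groups share only number 1. The deposited tables pair the libraries another way, and with the table as a block Has2 had a log2 fold change of -0.015; the cause was not tested. The other tested matrix genes, H2afv and the 24 named pathway genes with a test kept their sign in each setting with all 4 libraries. Values of the markers, and of nearest genes outside these, were not compared between settings.

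With each library left out the log2 fold changes ranged from -0.020 to 0.15 for Bcan, -0.022 to 0.97 for Cspg5, -0.035 to 0.26 for Hapln4, -0.99 to 0.71 for Has2 and -0.095 to 0.22 for Has3. They ranged from -0.30 to 1.03 for Tnc, -0.50 to 0.053 for Ptprz1, -0.072 to 0.061 for Ptprs, -0.40 to 0.054 for Ptprf, -0.25 to 0.54 for Cd44, -0.30 to 0.52 for Hapln3, -0.037 to 0.41 for Spock2, -0.16 to 0.065 for Gfpt1, -0.33 to 0.25 for Hyal2, -0.045 to 0.37 for Timp2 and -0.53 to 0.038 for Mmp14. Ncan, Vcan and Hapln2 kept their sign in these fits. For Ncan and Hapln2 this was fixed beforehand, since both cKO libraries lie above both WT libraries. The group difference in the ratio of Has3 to Has2, 3.03 with all libraries, ranged from -6.02 to 12.1 with each library left out, and was -2.19 without WT replicate 4. Acan and Hapln1, at 2 to 9 reads, could not show a change of moderate size at this depth.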
